A study of Rattus norvegicus with 6 samples.

Results

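Photoreceptor ribbon synapse genes encode the release machinery with which rods and cones pass their signal to bipolar and horizontal cells. The 10 genes described here were taken by symbol from the deposited table of 34170 genes. They are Ctbp2, Bsn, Pclo and Rims2 (the ribbon and its active zone), Cacna1f, Cacna2d4 and Cabp4 (the presynaptic calcium channel), Slc17a7 (vesicle loading) and Cplx3 and Cplx4 (control of fusion). Each of the 10 symbols had 1 row, and all 10 were above the filter on low values.

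Poly-A RNA was sequenced from the retinas of 6 male rats of the outbred Sprague-Dawley stock. The 3 diabetic rats had been given streptozotocin, a toxin of the insulin-producing beta cells, into the abdomen at 60 mg/kg on 5 days in a row after a fast of 12 h, and counted as diabetic above 16.7 mmol/L blood glucose 1 week later. The 3 control rats had been given citrate buffer on the same schedule of 5 days, and no group carried a transgene or deletion according to the labels. For the rats' age, the time of retina collection and any fast of the control rats, nothing is given in the sources used here. Each library came from a separately weighed rat, so the tests rest on the spread between animals.

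A photoreceptor releases glutamate continuously in the dark and lowers the release in light. Its terminal holds a plate-like ribbon, built mainly from the protein RIBEYE, which tethers vesicles near a cluster of Cav1.4 calcium channels. Bassoon anchors the ribbon at the membrane, RIM proteins hold vesicles and channels together, and complexins regulate the fusion step. Inherited defects of CACNA1F, CABP4 or CACNA2D4 disturb transmission at this synapse and cause night blindness or cone dysfunction in humans.

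Upstream sequence from RefSeq (build GRCr8) was at hand for 8 of the 10 genes. The 6 letters TAATCC, the core sequence recognised by the photoreceptor homeobox proteins CRX and OTX2, were searched on both strands (GGATTA on the other) in the 250 bases before each gene's start. They occurred in 3 of the 8 genes, and in 6.34% of 33469 promoters of the same length. The stretches that hold them are shown because one lies before the gene with the smallest p of the set, Cabp4, and one before Cplx4, whose mean differed in the opposite direction. Capitals mark the searched letters, and each stretch is written 5′ to 3′ on the gene's strand.
Cabp4: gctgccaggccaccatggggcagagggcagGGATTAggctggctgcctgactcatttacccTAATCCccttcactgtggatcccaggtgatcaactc
Cplx4: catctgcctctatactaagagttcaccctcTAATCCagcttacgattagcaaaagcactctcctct
Ctbp2: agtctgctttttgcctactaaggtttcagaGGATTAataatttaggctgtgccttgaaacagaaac
The Cabp4 stretch is chr1:210862667-210862763 on the minus strand of GRCr8, and its matches begin 101 and 70 bases before the start. The Cplx4 stretch is chr18:61767775-61767840 on the minus strand, with its match 56 bases before the start. The Ctbp2 stretch is chr1:197241988-197242053 on the minus strand, with its match 120 bases before the start. The table holds 1 start per gene, and which start was used in these retinas was not tested. RIBEYE is made from a start of its own within Ctbp2. A match is a description of letters and not a measured site.

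With limma on log2(FPKM + 0.5) over 16363 genes, 0 were below 0.05 after Benjamini-Hochberg adjustment (0% of genes), so 0 of the 10 synapse genes passed. At an unadjusted p under 0.05 there were 3255 genes, 19.9% of all, and voom on the rebuilt fragments passed 2 genes, none of them a synapse gene of this set. FPKM are fragments divided by gene length and by library size, and each value is the deposited one. Of the 10 genes, 6 had a positive and 4 a negative log2 difference (diabetic minus control). An unadjusted p under 0.05 was reached by 3 in the higher direction (9.15% of all genes) and by 2 in the lower direction (10.7% of all genes). The groups did not overlap in 4 of the 10, where 26.2% of all genes did not overlap. These were Ctbp2 and Rims2, higher in diabetic retina (12.7% of all genes), and Cabp4 and Slc17a7, lower in diabetic retina (13.6% of all genes). With 10 genes chosen in view of earlier results, these counts are a description.

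**Figure D1:**
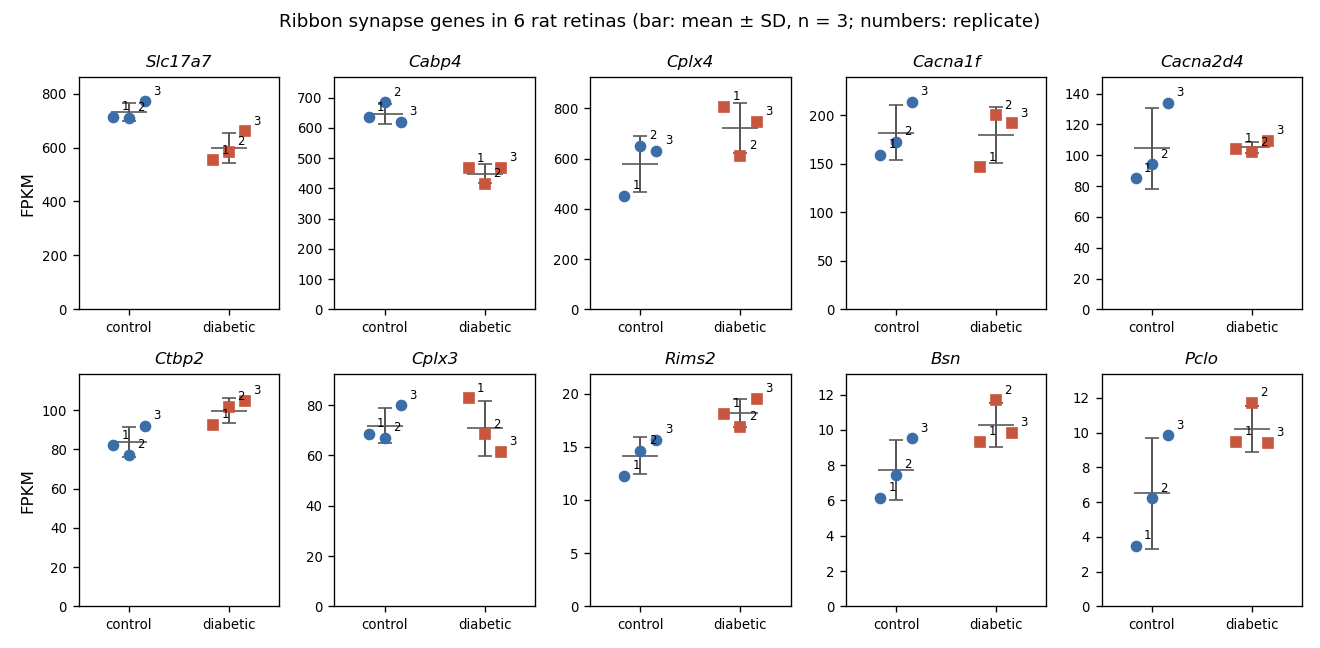
Deposited FPKM (vertical axes, from 0) of the 10 synapse genes in control (circles) and diabetic (squares) retinas, with replicate numbers and the mean ± SD of 3 rats. Cabp4 and Slc17a7 are lower in all 3 diabetic rats than in any control rat, Ctbp2 and Rims2 are higher in all 3, and the other 6 panels overlap.

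Cabp4 encodes a calcium-binding protein that attaches to the Cav1.4 channel and lets it open at the voltages of a photoreceptor in the dark. It measured 635, 684 and 621 FPKM in control 1, 2 and 3 and 466, 414 and 467 FPKM in diabetic 1, 2 and 3. Every diabetic rat lay below every control rat, and the gap between the groups was wider than the range within either group. The means were 647 ± 33.5 and 449 ± 30.3 FPKM (SD, n = 3 each). The log2 difference was -0.53, with a standard error of 0.09 and a 95% interval from -0.75 to -0.31 (adjusted p = 0.127, limma). The files place the gene (ENSRNOG00000022044) on chromosome 1 from 219383452 to 219388009, minus strand, in a build not given in the sources used here. Its difference was between -0.56 and -0.47 when 1 library was left out, and it was -0.23 under quantile normalization.

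The pore-forming subunit of the same channel showed no such separation. Cacna1f, which encodes the Cav1.4 alpha1 subunit, measured 159, 172 and 214 FPKM in control and 146, 199.7 and 192 FPKM in diabetic retinas. The groups overlapped, with the lowest value in diabetic 1 and the highest in control 3. Its log2 difference was -0.02, with a 95% interval from -0.39 to 0.34 (adjusted p = 0.949, limma). This interval does not exclude a change of about the size seen for Slc17a7. Cacna2d4, the auxiliary alpha2delta subunit that brings the channel to the terminal, measured 85.0, 94.1 and 134 FPKM in control and 104, 102 and 109 FPKM in diabetic retinas. The 3 diabetic values lay inside the control range, and control 3 was the highest library for both channel subunits. The log2 difference of Cacna2d4 was 0.04 (95% interval -0.35 to 0.42). The span of Lrtm2, at a mean of 9.93 FPKM, overlaps that of Cacna2d4 on the opposite strand by 14692 nt. Whether their exons overlap was not tested.

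The ratio of Cabp4 to Cacna1f within a library was 3.98, 3.97 and 2.90 in control and 3.19, 2.07 and 2.44 in diabetic retinas. The ranges overlapped through control 3 and diabetic 1 (p = 0.2, exact permutation test, two-sided, adjusted p = 0.25 over 5 ratios). The ratio of Cacna2d4 to Cacna1f was 0.57 ± 0.05 in control and 0.60 ± 0.10 in diabetic retinas (SD, n = 3, p = 0.8, exact permutation test, two-sided). The 5 ratios were chosen with the values of the genes known, and the smallest p that 3 against 3 rats allow is 0.1.

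Slc17a7 encodes the vesicular glutamate transporter VGLUT1, which loads glutamate into the vesicles of photoreceptors and bipolar cells. It measured 715, 710.1 and 771 FPKM in control and 552, 584 and 659.5 FPKM in diabetic retinas. All 3 diabetic rats were below the lowest control rat, and diabetic 3 came nearest to it. The log2 difference was -0.29, with a 95% interval from -0.53 to -0.05 (adjusted p = 0.193, limma). Its sequence of 3210 nt lies on chromosome 1 from 101161252 to 101173174, plus strand, in the files. Quantile normalization brought the difference to -0.04.

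The complexins, small proteins that bind the assembled SNARE complex, are represented at ribbon synapses by 2 isoforms with a lipid anchor. Cplx4 is found at photoreceptor terminals, and Cplx3 is found there and in amacrine cells. Cplx4 measured 453, 652 and 632 FPKM in control and 807, 611 and 747 FPKM in diabetic retinas. Diabetic 1 and 3 were above every control rat, while diabetic 2 was below control 2 and 3, so the groups overlapped. The log2 difference was 0.33, with a 95% interval from -0.08 to 0.74 (adjusted p = 0.343, limma), and it was 0.16 without control 1. Cplx3 measured 68.6, 67.0 and 79.8 FPKM in control and 82.7, 68.4 and 61.3 FPKM in diabetic retinas. Its diabetic values spread over a wider range than its control values on both sides, with a log2 difference of -0.03 (95% interval -0.33 to 0.27). The ratio of Cplx4 to Cplx3 was 8.08 ± 1.58 in control and 10.3 ± 1.69 in diabetic retinas (SD, n = 3, p = 0.2, exact permutation test, two-sided).

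Among the scaffold genes, Ctbp2 and Rims2 were higher in all 3 diabetic rats. Ctbp2 gives rise both to RIBEYE, the ribbon's main protein, and to CtBP2, a transcriptional corepressor found in many cells, and a value for the whole gene does not separate them. It measured 82.1, 77.3 and 91.9 FPKM in control and 92.6, 102 and 105 FPKM in diabetic retinas. The highest control and the lowest diabetic value were 91.9 and 92.6 FPKM, so the groups were separated by less than the spread within either. The log2 difference was 0.25, with a 95% interval from 0.04 to 0.47 (adjusted p = 0.201, limma). Rims2 encodes RIM2, the main RIM protein of photoreceptor active zones, which promotes opening of the calcium channels. It measured 12.2, 14.6 and 15.6 FPKM in control and 18.1, 16.9 and 19.5 FPKM in diabetic retinas. Its groups did not overlap, and its log2 difference was 0.35 with a 95% interval from 0.09 to 0.62 (adjusted p = 0.176, limma).

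The giant scaffold genes Bsn and Pclo were measured at the lowest levels of the set. Bsn, which encodes bassoon, measured 6.14, 7.45 and 9.52 FPKM in control and 9.33, 11.7 and 9.84 FPKM in diabetic retinas. Control 3 lay above diabetic 1, and the other control rats lay below all diabetic rats. The log2 difference was 0.41, with a 95% interval from 0.01 to 0.81 (adjusted p = 0.242, limma). Pclo encodes piccolo, of which photoreceptors use a short form called piccolino, and the value covers the whole gene. It measured 3.47, 6.22 and 9.85 FPKM in control and 9.48, 11.7 and 9.43 FPKM in diabetic retinas. Control 1 and 2 were below every diabetic rat, and control 3 was above diabetic 1 and 3. Its log2 difference of 0.71 (95% interval -0.04 to 1.47, adjusted p = 0.271, limma) was the largest of the set in size and the least precise. It was 0.36 without control 1 and 1.05 without control 3, and that of Bsn was 0.27 without control 1.

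Counting error is a small part of this spread. The fewest fragments behind a value were 980, for Pclo in control 1, where counting error alone gives a coefficient of variation of 3.19%, against 49.2% between the 3 control rats. Slc17a7 rested on up to 40004 fragments in 1 library.

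The order of the genes by level differed between the groups at its top. In control retinas the order by mean FPKM was Slc17a7, Cabp4, Cplx4, Cacna1f, Cacna2d4, Ctbp2, Cplx3, Rims2, Bsn and Pclo. Neighbours whose control values overlapped were Cabp4 with Cplx4, Cacna2d4 with Ctbp2, Ctbp2 with Cplx3, and Bsn with Pclo. In diabetic retinas Cplx4 had the highest mean, at 722 ± 100.2 FPKM, followed by Slc17a7 at 599 ± 55.0 and Cabp4 at 449 ± 30.3 FPKM (SD, n = 3). The diabetic values of Cplx4 and Slc17a7 overlapped, and those of Cplx4 and Cabp4 did not. The ratio of Cplx4 to Cabp4 was 0.71, 0.95 and 1.02 in control and 1.73, 1.48 and 1.60 in diabetic retinas, a log2 difference of 0.85. The ratio of Cplx4 to Slc17a7 was 0.63, 0.92 and 0.82 in control and 1.46, 1.05 and 1.13 in diabetic retinas, a log2 difference of 0.62. Neither ratio overlapped between the groups, and both had the smallest p the design allows (p = 0.1, exact permutation test, two-sided, adjusted p = 0.25 over 5 ratios). Both pair genes already seen to differ in opposite directions, and the adjustment does not cover that choice, so the separation is a description. Such a ratio within a library does not change when that library is scaled as a whole, but other scalings can move it. Cplx4 has 1138 nt, Cabp4 1443 nt and Slc17a7 3210 nt. The part of scaling and gene length in these 2 ratios was not tested.

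Differences in this table followed gene length above about 420 nt (the shortest genes, of 42 to 420 nt, had a median of 0.01), and the members range from 1138 nt (Cplx4) to 16596 nt (Pclo). The median log2 difference of all genes was -0.10 among 1636 genes of 1378 to 1734 nt, where Cabp4 lies, and 0.17 among 1637 genes of 5083 nt or more, where Bsn, Pclo, Rims2 and Cacna1f lie. The longest genes had library medians of -0.06, -0.04 and 0.11 in control 1, 2 and 3 relative to the control mean, and of 0.13, 0.20 and 0.17 in the 3 diabetic libraries. Control 3, the control rat with the highest Pclo and Bsn, stood apart from the other control rats in long genes as a class. With the length trend of each library removed, Rims2 had a log2 difference of 0.15, Bsn 0.11 and Pclo 0.40, against 0.35, 0.41 and 0.71 on the deposited scale. Cabp4 had -0.44, Slc17a7 -0.33, Cplx4 0.44 and Ctbp2 0.18 on that scale. The shortest member, Cplx4, had 0.33 on the deposited scale, where genes of 953 to 1378 nt had a median of -0.12.

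**Figure D2:**
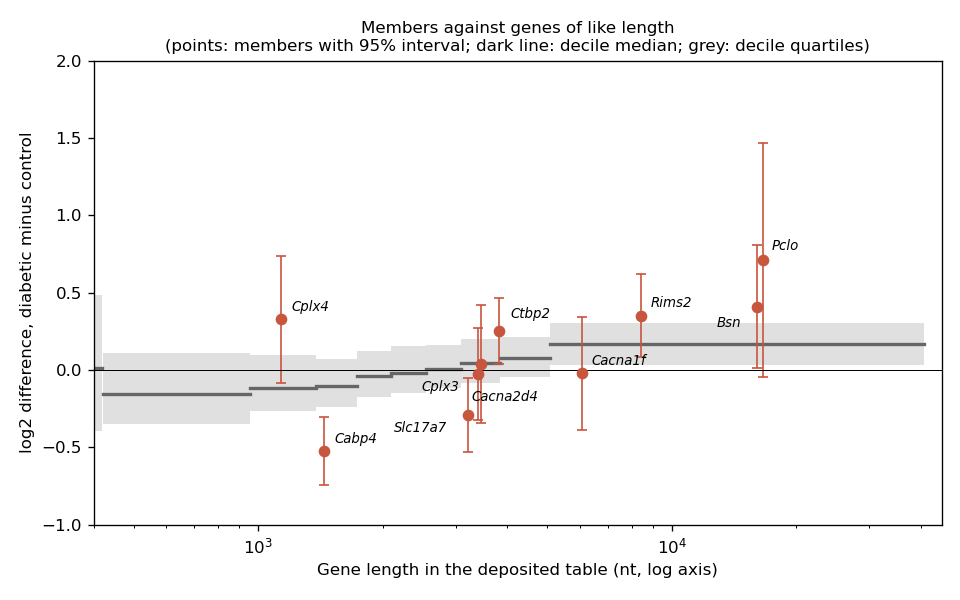
Log2 difference (diabetic minus control) of the 10 genes with 95% intervals against gene length on a log axis, over the median (dark lines) and quartiles (grey) of the genes tested, split by length into 10 classes. Bsn, Pclo and Rims2 lie in the longest class, whose median is 0.17, Cabp4 and Slc17a7 lie below their classes, and Cplx4 lies above a class whose median is -0.12.

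Rod genes were lower in the same diabetic libraries. Of 10 rod markers tested, 9 had a negative log2 difference, with a median of -0.21, and 6 did not overlap between groups in the lower direction, as did 13.6% of all genes. Their summed level ranged from 36011 to 40441 FPKM in control and from 29986 to 34647 FPKM in diabetic retinas, and none was at 0. Gnat1, the rod transducin subunit, had a log2 difference of -0.52, close to that of Cabp4, without passing (adjusted p = 0.151, limma). When each library was centred on the median of its rod markers, Cabp4 had a log2 difference of -0.29 and Slc17a7 of -0.05, while all genes had a median of 0.24. On that scale the difference of Rims2 was 0.59 and passed (adjusted p = 0.0487, limma), along with 450 genes in all, of which 442 were higher. In bulk retina, fewer cells of a type and less RNA per cell cannot be told apart. Cone markers had a median of -0.06 with 5 of 9 lower. At an unadjusted p under 0.05, 1 was higher (Opn1sw, 0.81) and 3 were lower (Pde6h, -0.38, Gngt2, -0.49, and Gnat2, -0.45). Over all genes, 9.15% were higher and 10.7% lower at that mark. The summed level of the 9 cone markers was 671 to 761 FPKM in control retinas and 577 to 643 FPKM in diabetic retinas. Bipolar markers, of cells that also use Slc17a7 and ribbons, had a median of 0.05 with 6 of 8 higher. Of these 8 markers, 0 were higher and 1 was lower (Pcp2, -0.29) at an unadjusted p under 0.05 (9.15% and 10.7% of all genes). Pcp2 also did not overlap between groups, in the lower direction (13.6% of all genes). Amacrine markers, of cells that also use Cplx3, had a median of 0.15 with 7 of 8 higher, close to the median of the synapse genes. With the length trend removed, both medians were lower, at 0.047 for the amacrine markers and 0.045 for the synapse genes. Of the 8 amacrine markers, 3 were higher at an unadjusted p under 0.05 (9.15% of all genes) and 2 did not overlap in the higher direction (12.7% of all genes). Their summed level was 214 to 234 FPKM in control retinas and 231 to 264 FPKM in diabetic retinas, none was at 0, and their part in the synapse values was not tested.

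The scale itself moved the count of genes in each direction. The summed FPKM of a library was between 514771 and 552093 in control and between 467488 and 500107 in diabetic retinas. Rescaling to TPM, which sets these sums equal, moved the median of all genes by 0.12 and turned the split of genes at an unadjusted p under 0.05 from 1498 higher and 1757 lower to 3004 higher and 696 lower. With TPM, 8 of the 10 synapse genes were higher, and Cabp4 (-0.39) and Slc17a7 (-0.16) were the lower ones. Voom on the fragments split the genes into 2210 higher and 1203 lower. The median of the 10 genes was 0.14 on the deposited scale, where that of all genes was 0.00, and 0.28 with TPM, so relative to all genes it was 0.14 and 0.16. The same value was 0.28 after quantile normalization. Without the length trend it was 0.053, and there 5 of the 10 were higher and the median of all 10 was 0.045. Cacna1f and Cplx3, both close to 0, changed sign with the scale.

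**Figure D3:**
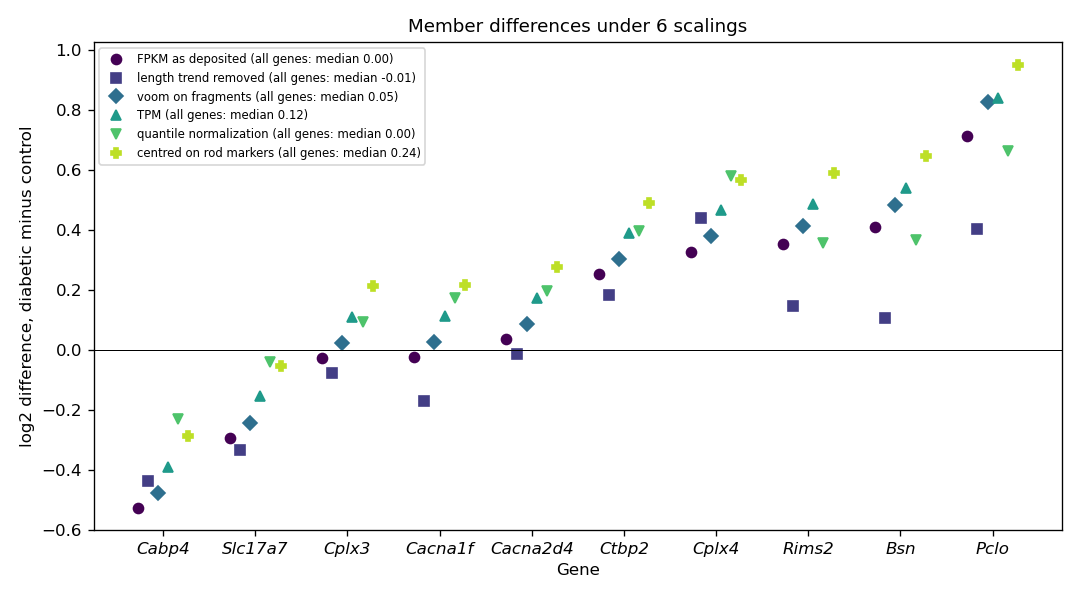
Log2 difference (diabetic minus control) of each gene under 6 scalings, with the median of all genes under each scaling in the legend. Cabp4 and Slc17a7 are below 0 and Ctbp2, Cplx4, Rims2, Bsn and Pclo above 0 under all 6, while Cplx3, Cacna1f and Cacna2d4 lie on both sides of 0.

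Other genes were taken from 6 lists, of the synapse and of paralogues of the members, and 64 of them were tested. Of the 64, 11 were paralogues, which were not chosen as genes of this synapse. None passed over all genes (smallest adjusted p = 0.128, limma). At an unadjusted p under 0.05, 11 were higher (17.2% of 64, where 9.15% of all genes were) and 5 lower (7.81%, where 10.7% of all genes were). Their median log2 difference was 0.08. These counts moved with the scale, to 19 higher and 1 lower with TPM (18.4% and 4.25% of all genes) and to 15 higher and 1 lower under quantile normalization (9.43% and 8.71%). They were 32 higher and 0 lower when centred on rod markers (28.7% and 1.42%), 15 and 3 with voom (13.5% and 7.35%) and 9 and 5 with the length trend removed (8.17% and 9.20%). Among 12 further genes of the ribbon and active zone, 3 were higher and 2 lower at that mark (9.15% and 10.7% of all genes), with a median of 0.16 that became 0.01 with the length trend removed. The RIM1 gene Rims1 measured 3.22, 2.99 and 3.68 FPKM in control and 4.90, 4.66 and 4.29 FPKM in diabetic retinas. Its groups did not overlap, as in Rims2 (log2 difference 0.43). Kif3a, a kinesin-II motor subunit found on ribbons and in cilia, had 0.48, and Cacnb2, the beta subunit of the photoreceptor calcium channel, had 0.33. Cacnb2 measured 57.0, 58.9 and 69.9 FPKM in control and 74.0, 75.1 and 84.4 FPKM in diabetic retinas, so this subunit and Cabp4 differed in opposite directions. Unc119, a lipid-binding trafficking protein abundant in photoreceptors, had a log2 difference of -0.38, from 1287, 1507 and 1293 to 1068, 968 and 1091 FPKM. It was -0.11 under quantile normalization.

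Of 13 genes of vesicle fusion and recycling, 3 were higher and 1 lower at an unadjusted p under 0.05 (9.15% and 10.7% of all genes), with a median of 0.08. With TPM 5 were higher and 0 lower (18.4% and 4.25% of all genes). Under quantile normalization 7 were higher and 0 lower (9.43% and 8.71% of all genes), with a median of 0.29. Syt1, the calcium sensor of fast release, measured 217, 205 and 198 FPKM in control and 259.8, 249 and 258 FPKM in diabetic retinas, with no overlap (log2 difference 0.31). Napb, which helps to take SNARE complexes apart, had 0.47, and Sh3gl2, the endophilin gene of vesicle retrieval, had 0.34. The vesicle SNARE gene Vamp2 had -0.18, which turned to 0.04 under quantile normalization. When centred on rod markers it was 0.06, below the median of 0.24 that all genes had on that scale. None of these differences passed over all genes. They are of genes that all retinal neurons use, so they do not separate photoreceptor terminals from other synapses.

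Of 8 transporters, pumps and channels of the terminal, 2 were higher and 0 lower at that mark (9.15% and 10.7% of all genes), with a median of 0.12. Atp2b1, the membrane pump that clears calcium from the terminal, measured 48.7, 46.1 and 56.3 FPKM in control and 67.3, 68.4 and 70.2 FPKM in diabetic retinas. Its groups did not overlap, with a log2 difference of 0.45 that was 0.36 with the length trend removed (adjusted p = 0.128, limma). Cacna1d, the Cav1.3 channel gene, had 0.44 with overlapping groups and 0.21 with the length trend removed. Among 11 genes of the synaptic cleft, 2 were higher and 0 lower on the deposited scale (9.15% and 10.7% of all genes). With the length trend removed, 0 were higher and 1 lower (8.17% and 9.20% of all genes). The 2 higher on the deposited scale were Nrxn3 (0.35), a presynaptic adhesion gene, and Elfn1 (0.36). The product of Elfn1 on the rod terminal binds the bipolar cell's glutamate receptor. Of 9 genes listed for the ON bipolar dendrite, 1 was higher (Gng13, 0.54) and 1 was lower (Gnb5, -0.30), near the shares of all genes. Gnb5 had -0.02 under quantile normalization. Its control mean was 485 FPKM, against 28.6 FPKM for Grm6 of the same list. Which retinal cells gave these values was not tested. The span of Gng13 overlaps that of Chtf18 on the opposite strand by 524 nt. The 9 genes listed for the ON bipolar dendrite had a median of 0.05.

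Paralogues of the members had a median of 0.05 over 11 genes, with 0 higher and 1 lower at that mark (9.15% and 10.7% of all genes). Ctbp1, the paralogue of Ctbp2 that makes no RIBEYE, measured 89.3, 88.6 and 87.9 FPKM in control and 81.5, 75.6 and 81.7 FPKM in diabetic retinas. Its groups did not overlap, and its log2 difference of -0.15 (adjusted p = 0.256, limma) became 0.08 when centred on rod markers, where all genes had a median of 0.24. Cplx1, a complexin of conventional synapses, had -0.32 with overlapping groups, and Cabp2, the paralogue of Cabp4 at the mark, had -0.30.

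**Figure D4:**
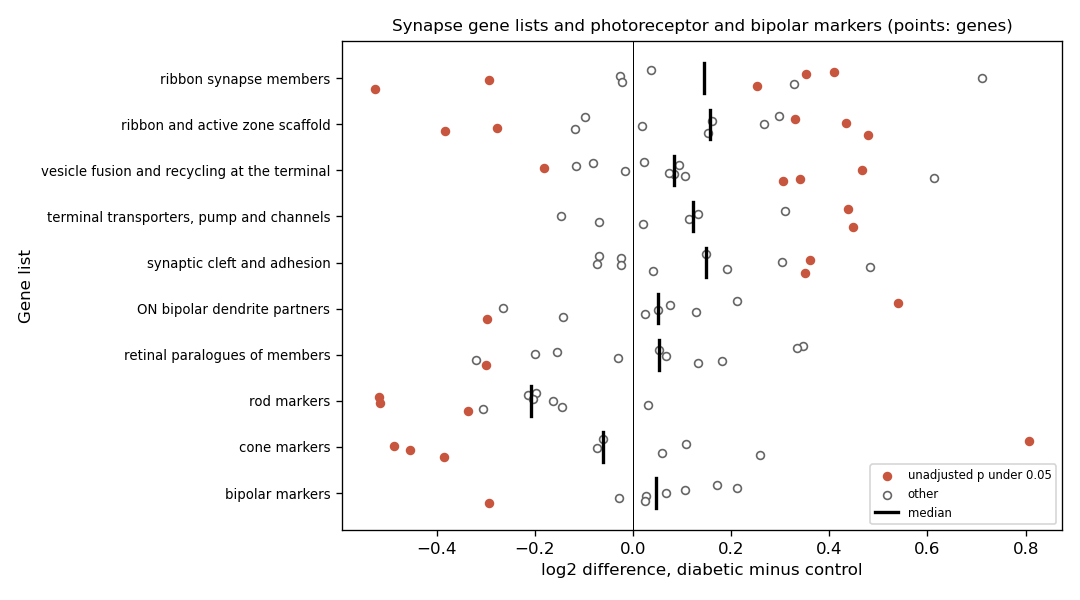
Log2 difference (diabetic minus control) of every tested gene in the synapse lists, the list of paralogues and 3 marker lists. The list median is a black bar, and genes at an unadjusted p under 0.05 are filled. The rod markers have a median of -0.21, and the 10 synapse members range from -0.53 for Cabp4 to 0.71 for Pclo.

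The mean of the members' centred log2 values was lowest in control 1 (-0.27) and highest in control 3 (0.16), and it was compared with 9796 other genes of at least 5 FPKM over the 6 libraries. The closest patterns were those of Tvp23a, Gucy2d and Ptch1, with Pearson correlations of 0.997, 0.994 and 0.990. In all 3, as in Pclo, control 1 was the lowest library and control 3 lay above every other control. The points are the same 6 libraries, with their depth and length trend, and the values only describe the pattern. The members were averaged without scaling, and Pclo had the widest spread of them. Relative to the control mean, Pclo was at -0.71 in control 1 and 0.67 in control 3. Cabp4 was at -0.03 and -0.06 in those libraries, so the averaged pattern is not one that all members share.

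The libraries held between 12417686 and 19115426 fragments, and control 2 and 3 were the shallowest. Markers of rods, cones, bipolar, amacrine, ganglion and Müller cells were all found, and none of those markers was at 0 in every library. Lens markers summed to 343 FPKM in control 3 and to between 8.55 and 42.9 FPKM in the other libraries, and pigment epithelium markers to between 40.0 and 91.4 FPKM over all libraries. Whether these sums come from carried-over tissue, and what part it has in the values of control 3, was not tested.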

How the data were processed

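Poly-A RNA of 6 rat retinas was sequenced in pairs, and no strand marking is named in the labels. The submitters' processing notes name HISAT2 2.0.5 as the aligner. Counting tool, build and annotation: not given in the sources used here. Per the file headers, the authors deposited FPKM and gene lengths. FPKM times gene length gave whole fragments (100% of values above 0 within 0.05 of a whole number), used only for depth and voom. Libraries of a group differed by more than sampling noise in every pair (chi-square over its degrees of freedom 10.7 or more).

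Genes averaging 0.5 FPKM or more were tested on log2(FPKM + 0.5), which understates changes of low genes, with limma 3.58.1 (R 4.3.3), group as the only term, intensity trend, two-sided, Benjamini-Hochberg over all 16363 genes, threshold 0.05. The fit was tested on simulated data. Members and lists were chosen with earlier results of these data known. Named were all members, up to 4 genes of smallest p per other list, and the 3 closest patterns. Lrtm2, Chtf18 and the 5 ratios were chosen after values were seen. Sv2b and Rgs11 were not analysed here. Alternatives were other pseudocounts, filters, scalings, limma settings, voom, a replicate block and the removal of each library in turn. Figures were drawn with matplotlib 3.10.9.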

Additional observations from a re-analysis of the deposited data

How the results depend on the processing

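Over 19 alternatives, 7 of the 10 synapse genes kept the sign of their log2 difference in all, and the exceptions were Cacna1f, Cplx3 and Cacna2d4. Cacna1f was at 0.22 when centred on rod markers, 0.17 under quantile normalization, 0.11 with TPM and 0.027 with voom, and between -0.11 and 0.12 when 1 library was left out. Cplx3 was at 0.21, 0.092, 0.11 and 0.022 under the same settings and between -0.14 and 0.070 when 1 library was left out. Cacna2d4 was at -0.015 with the length trend removed and between -0.10 and 0.23 when 1 library was left out. Rims2 passed only when centred on rod markers (0.59), and no other member passed under any alternative. The median of the 10 genes was 0.38 when centred on rod markers, 0.28 under quantile normalization, 0.28 with TPM, 0.045 without the length trend, and between 0.051 and 0.28 when 1 library was left out. The count of genes past the threshold over all genes was 450 when centred on rod markers, 2 with voom and between 0 and 4 when 1 library was left out. The count of members at an unadjusted p under 0.05 was 3 without the intensity trend (18.2% of all genes) and between 2 and 6 when 1 library was left out (12.7% to 24.5% of all genes). The cause of these shifts was not tested. Replicates of the same number had correlations of deviations of -0.05, -0.08 and 0.00. Whether samples were handled in pairs cannot be told from these values. With the replicate block, 0 genes passed over all genes and 6 members were at an unadjusted p under 0.05 (17.1% of all genes). Each value of the 10 genes rested on at least 980 fragments, which bounds counting error only, and libraries were not matched for depth.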
